A study of Rattus norvegicus with 6 samples.

Results

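The genes described here encode the alpha-1 subunits of voltage-gated calcium channels. Of the 10 listed genes, 9 (Cacna1a to Cacna1i) were each found on 1 probe set with a single gene symbol, among 18166 genes in all, and Cacna1s was not analysed here. They were chosen by name, with earlier results of these data known. RNA came from primary hippocampal neurons of embryonic day 18 rats, cultured with 10 µM 5-fluorodeoxyuridine, a nucleoside analogue that keeps dividing cells in check. At 4 days in vitro all cultures received 1800000 infectious units per ml of adeno-associated virus, carrying a control shRNA (control group, 3 arrays) or an shRNA against Ncoa3 (Ncoa3 shRNA group, 3 arrays), and RNA was harvested at 14 days in vitro. Each of 3 experiments gave 1 array of each group. Both groups carry virus, and untreated neurons were not part of the comparison. The question is how the RNA of these channel genes differed once Ncoa3, a coactivator of nuclear receptors, was silenced.

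The alpha-1 subunit forms the calcium pore and the voltage sensor, and auxiliary beta and alpha-2-delta subunits bring it to the membrane and set its gating. Channels of the L type (Cacna1c, Cacna1d, Cacna1f, Cacna1s) pass long-lasting currents and, in hippocampal neurons, link depolarisation to gene transcription. P/Q-, N- and R-type channels (Cacna1a, Cacna1b, Cacna1e) admit the calcium that triggers transmitter release. T-type channels (Cacna1g, Cacna1h, Cacna1i) open near rest and support burst firing.

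The deposited log2 signals of the groups were on different footings. Between 8680 and 13979 of 36685 probe sets had identical values on 2 arrays of 1 group, and 0 to 2 on arrays of different groups, and 5 of the 9 alpha-1 genes had such shared values. The median gene stood at -0.25 in Ncoa3 shRNA minus control. Differences are therefore given after quantile normalization of all 6 arrays ("normalized" below), with the deposited values beside them. Any difference in how the groups' arrays were processed and the effect of the shRNA cannot be told apart. The p-values measure the spread between these arrays and no error of such a difference. Ncoa3 itself was lower on all 3 Ncoa3 shRNA arrays, at 7.45 to 7.60 against 8.22 to 8.72 normalized (limma's adjusted p = 0.00747). The call of Ncoa3 was lost without experiment 1 (adjusted p = 0.134) or without experiment 2 (0.123).

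All 9 alpha-1 genes gave a signal on these arrays, with mean deposited log2 signals from 6.78 for Cacna1f to 11.20 for Cacna1a. Signals of different probe sets do not rank the amounts of their RNAs. As a guide to background, the 95th percentile of 1344 olfactory and vomeronasal receptor genes was 7.02, and 8 of the 9 lay above it. The exception was Cacna1f, whose signal can thus not be told from that of genes not used in neurons. Markers of the labelled cell type were bright, with all 5 pan-neuronal markers between 11.80 and 13.21. None of the 5 microglial markers lay above the receptor level, while all 4 measured astrocyte markers did (9.14 to 10.35). In such bulk RNA, fewer cells of a type and less RNA per cell cannot be told apart.

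After Ncoa3 knockdown 1 alpha-1 gene rose, 1 fell and 7 did not pass the test, where 19.5% of all genes passed (limma, adjusted p at most 0.05). Cacna1a rose by 0.23 on the log2 scale and Cacna1f fell by 0.35. The remaining differences ran from -0.29 for Cacna1i to 0.13 for Cacna1b. By direction, 10.5% of all genes were called higher and 9.04% lower. A count of 2 in 9 is near that background share. Genes above the median signal, which include 8 of the 9, passed in 10.4% of cases, and dimmer genes in 28.6%. The median difference of the 9 was -0.12, against 0.01 over all genes. Without experiment 1 or without experiment 2, 0 of the 9 passed limma's test (1 in each case at an unadjusted p of 0.05), and without experiment 3, 5 did. Of all 18166 genes 223 passed without experiment 1, 0 without experiment 2 and 8354 without experiment 3. The count among the 9 was also 0 without the control array or without the Ncoa3 shRNA array of experiment 1 or 2 (2 or 3 at an unadjusted p of 0.05). It was 1 without the control array of experiment 3. Over all genes the count was 1426 to 1609 in those fits of experiments 1 and 2. Without the control array of experiment 3 it was 3680.

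Some markers of other cell types also differed between the shRNA groups. Of all genes 19.5% were called, and 28.6% of those at or below the median signal. Taken singly, 40.5% of all genes did not overlap between the groups after normalization. The summed signals of the lists, on the log2 scale after normalization, did not overlap between the groups for microglia, fibroblasts and meningeal cells, the oligodendrocyte lineage and skeletal muscle. For the 5 microglial markers the sum was 8.10 to 8.28 with control and 8.42 to 8.75 with Ncoa3 shRNA. Of them 2 rose (Aif1 and Cx3cr1), and none lay above the receptor level. Csf1r stood at 0.17 (limma's adjusted p = 0.529, and 0.0383 in the blocked fit). The sum of the 5 fibroblast and meningeal markers was 10.93 to 11.30 with control and 11.40 to 11.74 with Ncoa3 shRNA. That sum is mostly Dcn, the brightest of them, which rose by 0.52 (limma's adjusted p = 0.0385). Col1a1 stood at -0.21 (0.272, and 0.0241 in the blocked fit) and Col3a1 at 0.18 (0.160, and 0.0105 in the blocked fit). The oligodendrocyte sum was 9.91 to 9.97 with control and 9.98 to 10.09 with Ncoa3 shRNA, with Pdgfra called higher among 4. Olig2 stood at 0.17 (limma's adjusted p = 0.417, and 0.0388 in the blocked fit). The muscle sum was 9.39 to 9.48 with control and 9.52 to 9.62 with Ncoa3 shRNA, with Tnnt3 called higher among 4. In the deposited values the microglial and fibroblast sums overlapped between the groups, and the other 2 turned, with lower sums for Ncoa3 shRNA (9.84 to 9.96 against 10.05 to 10.10 for the oligodendrocyte lineage and 9.37 to 9.51 against 9.51 to 9.65 for muscle). Astrocyte sums overlapped after normalization (11.40 to 11.87 with control and 11.29 to 11.96 with Ncoa3 shRNA), with 0 of 4 markers called. Endothelial sums overlapped too (8.40 to 8.50 with control and 8.28 to 8.42 with Ncoa3 shRNA). Flt1 was called lower among 3 (-0.37), with a mean signal of 6.32, below the receptor level. Cldn5 stood at -0.12 (limma's adjusted p = 0.291, and 0.0177 in the blocked fit). In the deposited values the endothelial, photoreceptor and glutamatergic sums were lower with Ncoa3 shRNA, without overlap. Among 5 markers of GABAergic neurons Slc32a1 rose by 0.50, Gad2 fell by 0.42 and Pvalb fell by 0.52. The mean signals of Pvalb (5.93), Pdgfra (6.36) and Tnnt3 (6.01) lay below the receptor level. Each of these 3 genes had the same deposited value on all 3 Ncoa3 shRNA arrays. Pdgfra differed by 0.04 in the deposited values. The part of all these cell types in the differences of the channel genes was not tested.

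**Figure D1:**
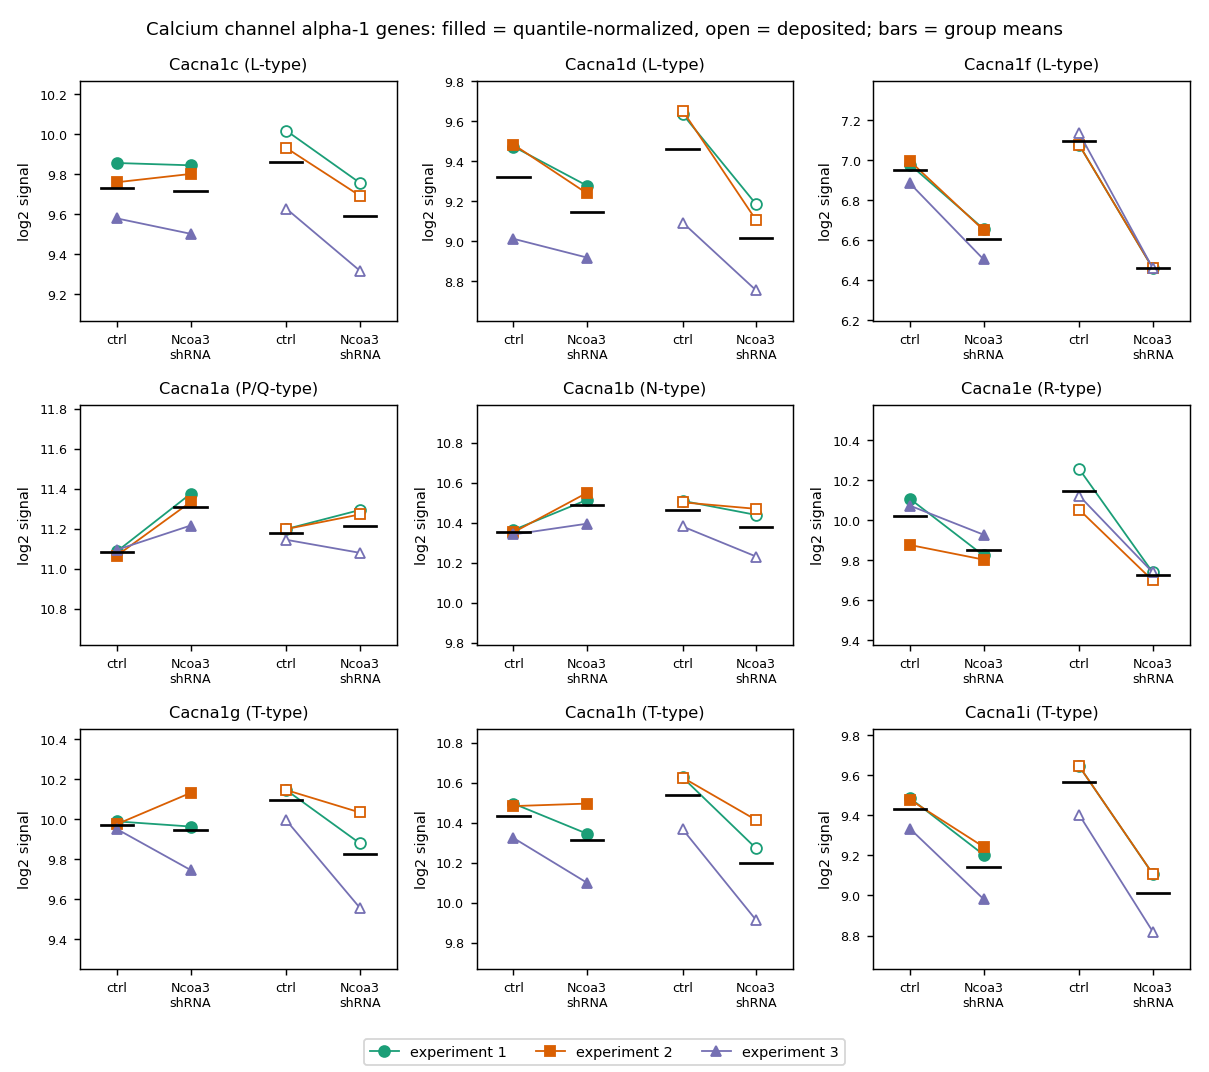
Log2 signal (vertical axis, at least 1.2 log2 units per panel) of the 9 alpha-1 genes in each array. Filled symbols are quantile-normalized and open symbols deposited values, lines join the arrays of an experiment, and black bars are group means of 3 arrays. After normalization Cacna1a and Cacna1b are higher with Ncoa3 shRNA in all 3 experiments, as are 36.8% of all genes. Cacna1d, Cacna1e, Cacna1f and Cacna1i are lower in all 3, as are 33.5% of all genes.

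Among the P/Q-, N- and R-type genes, Cacna1a, the pore of the P/Q-type channel that drives release at most fast central synapses, was the member that rose. Its normalized signal was 11.09, 11.07 and 11.10 on the control arrays of experiments 1, 2 and 3, and 11.37, 11.33 and 11.22 on the Ncoa3 shRNA arrays. The groups did not overlap, as was true of 40.5% of all genes (21.5% higher and 19% lower with Ncoa3 shRNA), and the Ncoa3 shRNA array of experiment 3 lay nearest to the controls. The difference was 0.23 ± 0.0566 (SE, n = 3 per group), a 1.17-fold rise with limma's adjusted p = 0.0403. In the deposited values it was 0.03 (adjusted p = 0.694), beside -0.25 for the median gene, so the rise is one relative to other genes. By experiment the deposited difference was 0.10, 0.07 and -0.07. After median centring the difference was 0.32 without a call (adjusted p = 0.211), and among bright genes alone the adjusted p was 0.0762. The call was also lost in 7 of the 9 fits that left out 1 array or 1 experiment (adjusted p up to 0.384).

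Cacna1b, the pore of the N-type channel, also active in transmitter release, showed a smaller difference in the same direction that did not pass. The control arrays gave normalized signals of 10.36, 10.35 and 10.34, and the Ncoa3 shRNA arrays 10.51, 10.55 and 10.39. The groups did not overlap, yet the difference of 0.13 (95% interval -0.02 to 0.28) had an adjusted p of 0.188 in limma's test. Its sign turned in the deposited values, to -0.08.

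Cacna1e, the R-type pore, stood lower in each experiment without passing. Its normalized signals were 10.11, 9.88 and 10.07 with control shRNA and 9.82, 9.80 and 9.93 with Ncoa3 shRNA, and the groups overlapped. The control array of experiment 2 lay among the Ncoa3 shRNA arrays. The difference was -0.17 (95% interval -0.37 to 0.04, limma's adjusted p = 0.223). In the deposited values it was -0.42 (adjusted p = 0.00429), with the same Ncoa3 shRNA value in experiments 1 and 3. The presynaptic genes Cacna1a and Cacna1b thus had positive normalized differences and Cacna1e a negative one, and no test compared them.

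Of the L-type genes, Cacna1c is the main L-type pore of brain and heart. Its normalized signals were 9.86, 9.76 and 9.58 with control shRNA and 9.84, 9.80 and 9.50 with Ncoa3 shRNA. The 2 arrays of an experiment lay close together, and experiment 3 was lowest in both groups. The difference of -0.02 had a 95% interval from -0.31 to 0.28 (limma's adjusted p = 0.947), and it was 0.01 after centring each array on its median. The deposited difference was -0.27 (adjusted p = 0.254, and 0.00771 in the blocked fit).

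Cacna1d encodes the L-type pore that opens at more negative voltages and serves pacemaking and hearing. The normalized signals were 9.47, 9.48 and 9.01 with control shRNA, and 9.28, 9.24 and 8.92 with Ncoa3 shRNA. The control array of experiment 3 lay below 2 of the Ncoa3 shRNA arrays, so the groups overlapped. Within each experiment the Ncoa3 shRNA array was lower (differences of -0.20, -0.24 and -0.09). The difference of -0.18 (95% interval -0.58 to 0.22) had an adjusted p of 0.508 in limma's test. With the experiment as a block the adjusted p was 0.0543. The deposited difference was -0.45 (adjusted p = 0.153, and 0.0162 in the blocked fit).

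Cacna1f, the L-type pore of photoreceptor synapses, was the member that fell. The control arrays gave normalized signals of 6.98, 6.995 and 6.88, the Ncoa3 shRNA arrays 6.66, 6.65 and 6.50, and the groups did not overlap. The difference was -0.35 ± 0.0664 (SE, n = 3 per group), with limma's adjusted p = 0.0172. Its deposited value was 6.46 on all 3 Ncoa3 shRNA arrays and 7.08 on control arrays 1 and 2, so the spread between the Ncoa3 shRNA arrays came from the normalization alone. The signal is at the receptor background, and 36.5% of the receptor genes passed the same test. Photoreceptor markers were dim as well, with 0 of 4 above the receptor level. Of them 0 were called higher and 2 lower, beside 9.04% of all genes lower. Of genes at or below the median signal 28.6% were called in either direction. The summed log2 signal of the markers was 8.28 to 8.41 with control and 8.25 to 8.33 with Ncoa3 shRNA. Crx stood at 0.24 (limma's adjusted p = 0.0592, and 0.00516 in the blocked fit), and at -0.04 in the deposited values. The part of these markers in the result was not tested. The call of Cacna1f was lost in 6 of the 9 fits with an array or an experiment left out (adjusted p up to 0.248).

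Promoter sequence upstream of the RefSeq start (assembly GRCr8) was at hand for 7 of the 10 listed genes. The 250 bases before the start are shown for Cacna1f, the gene that fell, and for Cacna1d, which differed most between experiments. Capitals mark AGGTCA, the half-site that many nuclear receptors bind, searched on both strands (TGACCT is its reverse complement).
Cacna1f, chrX:17568309-17568558, minus strand: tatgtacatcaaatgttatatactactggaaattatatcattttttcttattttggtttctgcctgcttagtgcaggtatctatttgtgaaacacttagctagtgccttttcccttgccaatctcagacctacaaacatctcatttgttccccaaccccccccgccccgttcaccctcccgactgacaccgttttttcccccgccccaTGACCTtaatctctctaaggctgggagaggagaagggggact
Cacna1d, chr16:5527550-5527799, minus strand: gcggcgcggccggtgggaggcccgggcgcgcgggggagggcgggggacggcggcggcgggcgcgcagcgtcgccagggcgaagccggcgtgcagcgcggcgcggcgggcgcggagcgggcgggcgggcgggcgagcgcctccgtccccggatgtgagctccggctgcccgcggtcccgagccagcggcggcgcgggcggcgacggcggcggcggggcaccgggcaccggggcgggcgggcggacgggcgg

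The half-site occurred in 1 of the 7 windows, that of Cacna1f, and in 14.1% of 33469 rat promoter windows of this length. The window of Cacna1d was 88.8% G or C and held 9 matches to the GC box GGGCGG on both strands, overlapping matches included. That of Cacna1f was 45.6% G or C and held 2. A GC box was found in 4 of the 7 windows and in 30.5% of all windows. The cyclic AMP response element TGACGTCA was in 0 of the 7 and in 1.59% of all. A match is a description of the letters, not of a bound site.

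The T-type genes had negative normalized differences, none of them past the test. Cacna1i, a T-type pore with slow kinetics, had the largest of these differences. Its normalized signals were 9.49, 9.48 and 9.33 with control shRNA and 9.20, 9.24 and 8.98 with Ncoa3 shRNA. The groups did not overlap, and every experiment showed the lower value with Ncoa3 shRNA (-0.28, -0.24 and -0.35). The difference was -0.29 ± 0.0948 (SE, n = 3 per group; 95% interval -0.52 to -0.06), with limma's adjusted p = 0.0853, and 0.0156 when the experiment was a block. The deposited values gave -0.55 (adjusted p = 0.0179). Its deposited value was the same on control arrays 1 and 2.

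Cacna1h, a T-type pore, had normalized signals of 10.50, 10.48 and 10.32 with control shRNA and 10.35, 10.50 and 10.10 with Ncoa3 shRNA. The groups overlapped, and the experiments differed in sign (-0.15, 0.01 and -0.22). The difference was -0.12 (95% interval -0.40 to 0.16, limma's adjusted p = 0.517). Deposited values gave -0.34 (adjusted p = 0.152, and 0.0339 in the blocked fit).

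Cacna1g, the T-type pore of thalamic relay neurons, gave 9.99, 9.98 and 9.95 with control shRNA and 9.96, 10.13 and 9.75 with Ncoa3 shRNA. The 3 control arrays were close together and the Ncoa3 shRNA arrays lay on both sides of them. The difference was -0.02 (95% interval -0.28 to 0.23, limma's adjusted p = 0.900), and its sign turned to 0.01 when each array was centred on its median. Deposited values gave -0.27 (adjusted p = 0.180).

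Read in the deposited values, 8 of the 9 genes were lower with Ncoa3 shRNA in all 3 experiments, and so were 75.9% of all genes. There 3 passed limma's test, all lower (Cacna1e, Cacna1f and Cacna1i). Of all genes 47.2% passed it, 3.97% higher and 43.3% lower. The deposited values of the groups did not overlap for the same 3 genes, as for 61% of all genes (55.6% lower). Blocking by experiment gave 6 lower genes in the deposited values, where 60.2% of all genes passed. Among normalized values the block gave 3 of the 9 (Cacna1a higher, Cacna1f and Cacna1i lower), where 39.3% of all genes passed, 20.8% higher and 18.6% lower. After normalization 2 of the 9 were higher and 4 lower in all 3 experiments, against 36.8% and 33.5% of all genes.

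**Figure D2:**
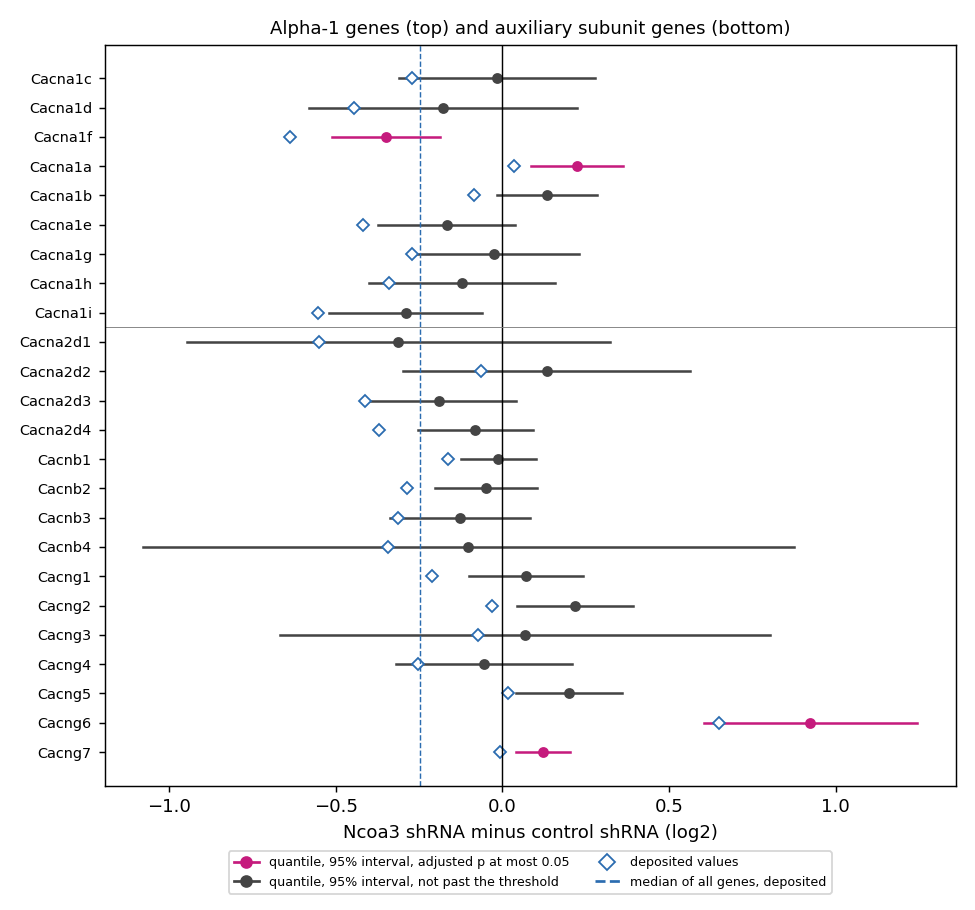
Ncoa3 shRNA minus control shRNA on the log2 scale (horizontal axis) for the alpha-1 genes and the auxiliary subunit genes, with dots and 95% intervals from the normalized values and open diamonds from the deposited values. Pink marks the genes past the threshold: Cacna1a at 0.23 and Cacna1f at -0.35 among the alpha-1 genes, and Cacng6 and Cacng7 among the auxiliary genes; the dashed line is the deposited median over all genes (-0.25).

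Alpha-1 genes also varied with the experiment. Experiment 3 was below experiments 1 and 2 in both groups for 7 of the 9, as for 51.1% of all genes. It was above them in both groups for 0 of the 9, as for 17.5% of all genes. Cacna1d stood apart the furthest: experiment 3 minus the mean of experiments 1 and 2 was -0.47 for the control and -0.34 for the Ncoa3 shRNA arrays. The same values were -0.23 and -0.32 for Cacna1c, -0.17 and -0.32 for Cacna1h, and -0.15 and -0.24 for Cacna1i. Cacna1e went the other way, at 0.08 and 0.11. The values of Cacna1a were 0.02 and -0.14, with the sign differing between the groups. The median over all genes, averaged over both groups, was -0.08.

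Cacna1d was the only alpha-1 gene past limma's F test of experiment (adjusted p = 0.0484), with Cacna1c next at 0.0528, where 18.8% of all genes passed. The adjustment gave other genes the same value of 0.0484, among them Cacnb4, Cacna2d2 and the endothelial marker Flt1. The deposited values of Flt1 had no spread within either group. Without experiment 3 the test gave 0 of 9 genes (0 at an unadjusted p of 0.05), and 0 of all 18166 genes. With deposited values it gave 0 of 9 (5 at an unadjusted p of 0.05), beside 347 of all genes. With arrays centred on their medians it gave 7 of 9, beside 10074 of all genes. The number of members lowest in experiment 3 in both groups was 7 in the deposited values, where the share over all genes was 29.7%. It was 9 after median centring (73.5% of all genes) and 6 after cyclic loess (39.8%). The averaged difference of Cacna1e was -0.01 and that of Cacna1f 0.03 in the deposited values, opposite in sign to the normalized ones. After median centring Cacna1e stood at -0.16. Astrocyte markers moved with the experiments too. All 4 measured ones were higher in experiment 3 in both groups, all 4 passed the F test, and their summed signal on the log2 scale was 11.87 and 11.96 in experiment 3 and 11.29 to 11.56 in the others. Of the 5 fibroblast and meningeal markers 3 passed it, with experiment 3 higher for Dcn (0.21, averaged over both groups) and Col1a1 (0.27) and lower for Col3a1 (-0.15). Endothelial markers passed in 2 of 3 cases, both lower in experiment 3 (-0.15 for Cldn5 and for Flt1). Oligodendrocyte markers passed in 2 of 4, with Olig2 at 0.29 and Pdgfra at -0.15. Microglial markers passed in 1 of 5 (Csf1r at 0.41) and photoreceptor markers in 1 of 4 (Crx at -0.14). In the deposited values the difference was 0 for Col3a1, Flt1, Pdgfra and Crx and 0.0013 for Cldn5. The negative values of Col3a1, Flt1, Pdgfra and Crx thus came from the normalization alone. Mean signals of Col3a1, Cldn5, Flt1, Pdgfra, Csf1r and Crx lay below the receptor percentile. The part of these cell types in the result was not tested.

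**Figure D3:**
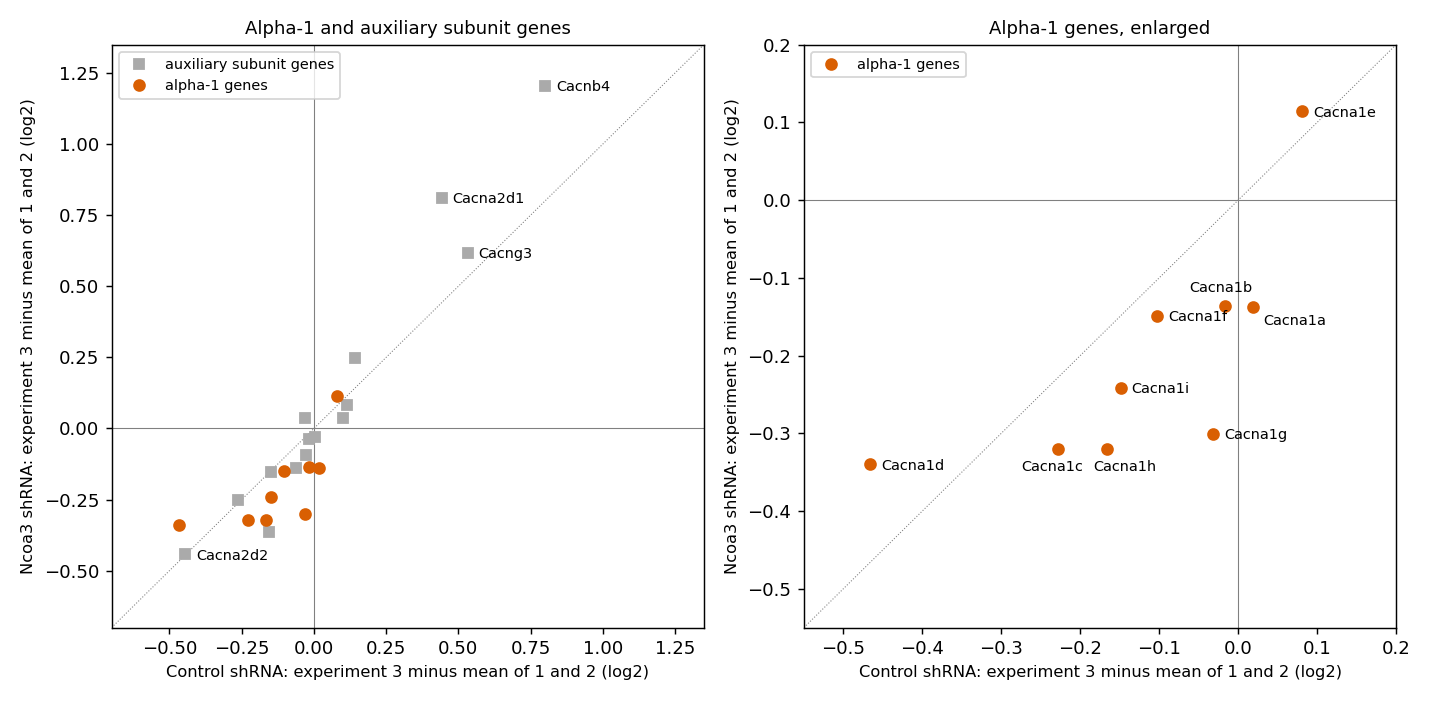
Normalized log2 signal of experiment 3 minus the mean of experiments 1 and 2, with control shRNA (horizontal axis) and Ncoa3 shRNA (vertical axis); each point is 1 gene, and the dotted line marks equal values. On the left are alpha-1 and auxiliary subunit genes, and on the right the alpha-1 genes enlarged, where Cacna1d lies at -0.47 and -0.34.

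Auxiliary subunits partner the alpha-1 pores. Of 15 measured auxiliary genes 2 rose, 0 fell and 13 did not pass, where 19.5% of all genes passed (10.5% higher and 9.04% lower). Their median difference was -0.01. Cacng6, a gamma subunit best known from muscle, rose. Its normalized signals were 6.76, 6.77 and 6.61 with control shRNA and 7.89, 7.62 and 7.39 with Ncoa3 shRNA, and the groups did not overlap. The difference was 0.92 ± 0.131 (SE, n = 3 per group), with limma's adjusted p = 0.00685. The deposited difference was 0.65, with the same value on all 3 control arrays, at 6.85, below the 95th percentile of the receptor genes, so no fold is given. The call was lost without experiment 1 (adjusted p = 0.0853) or without experiment 2 (0.125).

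Cacng7, a gamma subunit that also regulates AMPA receptors, rose by 0.12 (limma's adjusted p = 0.0482). Its deposited difference was -0.01, and its call was lost in 8 of the 9 fits with an array or experiment left out (adjusted p up to 0.417).

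The beta subunits, which bind the alpha-1 pores of the L, P/Q, N and R types inside the cell, did not pass. The differences were -0.01 for Cacnb1, -0.05 for Cacnb2, -0.13 for Cacnb3 and -0.10 for Cacnb4. In deposited values Cacnb1 (-0.16, adjusted p = 0.0369) and Cacnb2 (-0.29, 6.05e-05) passed limma's test as lower, beside -0.25 for the median gene. Cacnb3 stood at -0.31 (0.0728, and 0.0143 in the blocked fit) and Cacnb4 at -0.34 (0.546). The deposited value of Cacnb2 was 10.33 on all 3 control arrays and 10.04 on all 3 Ncoa3 shRNA arrays. Its low adjusted p thus rests on groups without any spread. The interval of Cacnb1 was narrow, from -0.12 to 0.10. That of Cacnb4 was wide, from -1.08 to 0.87, and its normalized signal was 10.54 and 10.70 in experiment 3 and between 9.33 and 9.79 in the others. Cacnb4 passed the F test of experiment (adjusted p = 0.0484), with experiment 3 higher by 1.00 on average, the opposite direction to Cacna1d.

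The alpha-2-delta subunits, which raise channel numbers at the membrane and include the targets of gabapentin, did not pass either. The differences were -0.31 for Cacna2d1 (95% interval -0.95 to 0.32), 0.13 for Cacna2d2, -0.19 for Cacna2d3 and -0.08 for Cacna2d4. In the blocked fit Cacna2d3 (adjusted p = 0.0389) and Cacna2d4 (0.0405) passed limma's test as lower. Deposited differences were -0.55 for Cacna2d1, -0.06 for Cacna2d2, -0.41 for Cacna2d3 (adjusted p = 0.00560) and -0.37 for Cacna2d4 (3.86e-07). The deposited value of Cacna2d4 was 6.27 on all 3 Ncoa3 shRNA arrays and 6.63 to 6.64 on the control arrays, so hardly any spread underlies its adjusted p. The mean signal of Cacna2d4, 6.45, lay below the receptor percentile. Experiment 3 was lower for Cacna2d2 (by -0.44 on average, F test adjusted p = 0.0484) and higher for Cacna2d1 (0.63, 0.0547).

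Among 18 measured regulators and partners of the channels 1 rose, 1 fell and 16 did not pass, against 19.5% of all genes called. Stac3, an adaptor of the muscle L-type channel, fell. Its normalized signals were 7.06, 7.08 and 6.91 with control shRNA and 6.33, 6.28 and 6.26 with Ncoa3 shRNA. The groups did not overlap, and the fall of 0.72 on the log2 scale had limma's adjusted p of 0.00155. Its deposited value was the same on all control arrays, and its mean of 6.65 lay below the receptor percentile. The call was lost without experiment 1 (adjusted p = 0.0729) or without experiment 2 (0.0838).

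Gem, a small GTPase that inhibits the channels, rose by 0.30 (limma's adjusted p = 0.0303). Its mean signal of 6.73 lay below the receptor percentile too. The deposited difference was 0.01, with the same value on all 3 control arrays, and its call was lost in 6 of the 9 fits with an array or experiment left out (adjusted p up to 0.319).

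Of 15 measured release channels, pumps and exchangers 0 rose, 1 fell and 14 did not pass, against 9.04% of all genes called lower. Atp2b1, a plasma membrane pump that clears calcium from the cell, fell and was bright. Its normalized signals were 11.62, 11.59 and 11.67 with control shRNA and 10.90, 10.76 and 11.31 with Ncoa3 shRNA. The groups did not overlap, and experiment 3 differed the least. The difference was -0.64 ± 0.141 (SE, n = 3 per group), which is lower by a factor of 1.56 (limma's adjusted p = 0.0273). The deposited difference was -0.82, with 6 different values on the 6 arrays. The call was lost in 7 of the 9 fits with an array or experiment left out (adjusted p up to 0.244).

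Of 18 measured calcium-dependent kinases, phosphatase subunits and transcription factors 1 rose, 1 fell and 16 did not pass, where 19.5% of all genes passed. Camk4, a kinase that carries calcium signals to the nucleus, fell by 0.32 (limma's adjusted p = 0.0230). Its deposited value was 9.79 on all control arrays and 9.21 on all Ncoa3 shRNA arrays, so its later spread came from the normalization alone. Mef2d, a calcium-regulated transcription factor, rose by 0.37 (adjusted p = 0.0157), and by 0.18 in the deposited values (0.0454, and 0.0973 in the blocked fit). Each of these calls was lost in 6 of the 9 fits with an array or experiment left out (adjusted p up to 0.310 and 0.214).

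Voltage-gated sodium channel alpha genes, whose proteins share the fold of the calcium pores, gave 1 rise and 1 fall among 9 measured, counting Nalcn and Unc79 of the sodium leak channel, beside 19.5% of all genes called. Scn11a rose by 0.31 (limma's adjusted p = 0.0224) and Scn4a fell by 0.31 (0.0257). Scn11a differed by 0.02 in the deposited values and Scn4a by -0.59, and the mean signal of Scn4a, 6.84, lay below the receptor percentile. The deposited value of Scn11a was 7.30 on all 3 control arrays, and its differences by experiment were -0.01, -0.01 and 0.09. That of Scn4a was 6.54 on all 3 Ncoa3 shRNA arrays. The calls of Scn11a and Scn4a were each lost in 6 of the 9 fits with an array or experiment left out (adjusted p up to 0.307 and 0.284). Their median difference was -0.17, beside -0.12 for the alpha-1 calcium genes.

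In the blocked fit more genes of each of these lists passed. The counts of rises and falls were then 3 and 2 for the auxiliary subunits, 3 and 2 for the regulators, 2 and 2 for release channels, pumps and exchangers, 1 and 2 for the calcium-dependent enzymes and factors, and 1 and 3 for the sodium channels. They are to be read against the 39.3% of all genes that passed in that fit.

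**Figure D4:**
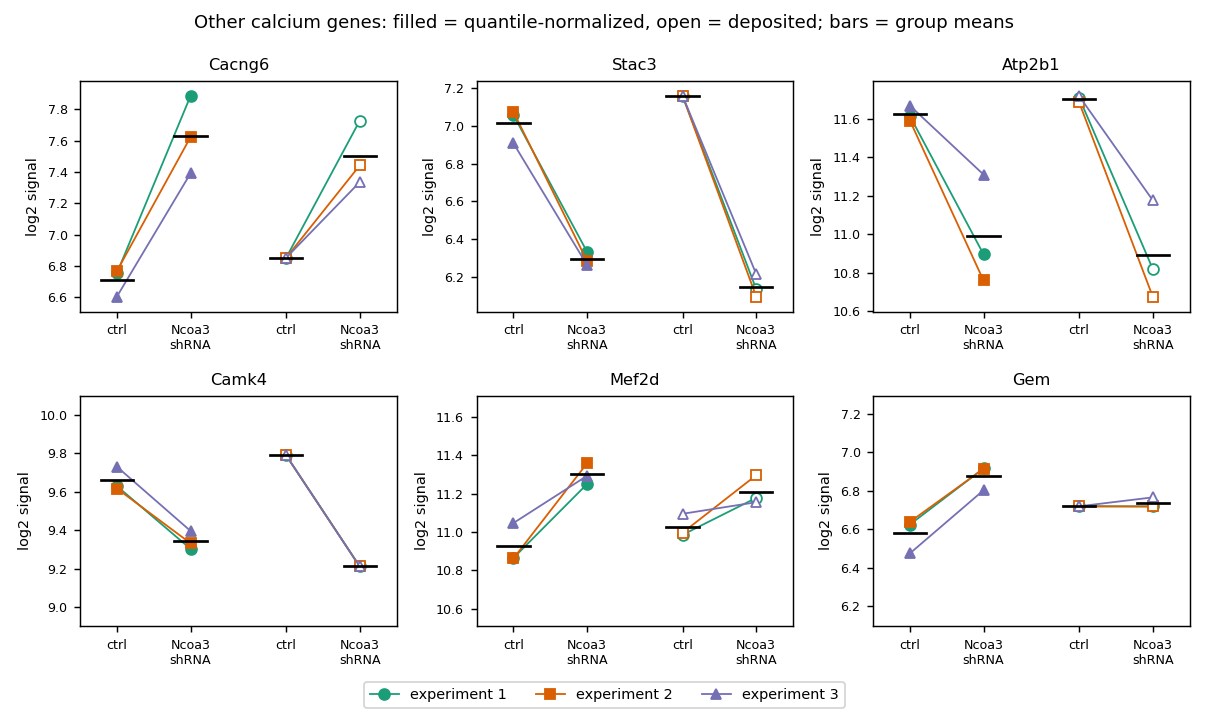
Log2 signal (vertical axis) of 6 other calcium genes past the test in each array, with filled symbols normalized, open symbols deposited, lines joining the arrays of an experiment, and black bars the group means of 3 arrays. Atp2b1 is lower with Ncoa3 shRNA in all 3 experiments on both scales, while Gem differs by 0.01 in the deposited values.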

How the data were processed

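RNA of 6 cultures was hybridised to single-colour Affymetrix arrays. The authors deposited log2 signals, 1 for each probe set on each array. The submitters' processing notes name Affymetrix Expression Console, and its version, the summarisation, the normalization and the build were not given in the sources used here. Symbols came from the annotation of the platform: 18511 of 36685 had 1 symbol, 575 had several and 17599 had none. Of the single symbols, 18394 matched RefSeq genes by identifier and 0 changed. Where a gene had several probe sets (291 genes), the brightest was used. The array median differed by -0.28 between the groups (two-sided exact permutation p = 0.1, the lowest possible for 3 against 3), so the 6 arrays were quantile normalized, which removes any change common to most genes.

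Each of 18166 genes was fitted with limma 3.58.1 (R 4.3.3; lmFit, then eBayes with its trend option), with no block. The tests were two-sided, p-values were adjusted by Benjamini-Hochberg over all genes, and the threshold was 0.05. Experiment was tested by an F test beside the group. The labels number the experiments, and deviations of arrays from their group means correlated within experiments at r = 0.72, 0.55 and 0.78 across genes, which are not independent replicates, so the numbers were taken as pairs and the blocked value is given where it changes a call. Arrays of a group are separate experiments, and their number limits the precision.

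The alternatives were deposited values, median centring, cyclic loess, the experiment as a block, no trend, bright genes only, the mean of probe sets, and leaving out arrays or experiments. The fits were tested on simulated data. Background was read from olfactory and vomeronasal receptor genes, whose symbols start with Olr or Vom or, a widening made after the annotation was seen, with Or and a digit. Sums over marker lists add linear signals. All 10 listed alpha-1 genes, Ncoa3, every beta and alpha-2-delta gene and, of the other lists, the genes past the threshold (the 4 with the largest difference where more pass) are named. The members and lists were chosen with earlier results of these data known.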

Additional observations from a re-analysis of the deposited data

How the results depend on the processing

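Over all genes, the count past the threshold was 3548 after quantile normalization. It was 8579 with deposited values, 1868 with median centring, 7147 with the replicate block, 10932 with the block and deposited values, 433 of the genes above the median signal, and 0 to 8354 when an array or experiment was left out (0 without experiment 2, where 3071 had an unadjusted p of at most 0.05; 223 without experiment 1). Of these calls 1905 were higher and 1643 lower; with deposited values 722 and 7857. For the alpha-1 genes the count was 2. It was 1 with median centring, 6 with the block and deposited values, 0 among genes above the median signal (2 at an unadjusted p of 0.05), and 0 to 5 with an array or experiment left out. For the 4 other calcium lists and the sodium channel list together the count was 9. It was 30 with deposited values, 21 with the block, 40 with the block and deposited values, 1 among bright genes, and 0 to 25 with an array or experiment left out (0 without experiment 1 or 2, with 7 and 10 at an unadjusted p of 0.05). The count of genes past the F test of experiment was 3411. It was 347 with deposited values, 10074 with median centring, 240 with cyclic loess, 1473 with no trend, 2073 among bright genes, and 0 to 1368 with an array or experiment left out, alternatives chosen after seeing the data (1323 to 7394 at an unadjusted p of 0.05 where it was 0). For alpha-1 genes that count was 1. It was 0 with deposited values (5 at an unadjusted p of 0.05), 7 with median centring, 0 with cyclic loess (2 at an unadjusted p of 0.05), 2 among bright genes, and 0 in each fit with an array or experiment left out (0 to 4 at an unadjusted p of 0.05). The difference of Cacng7 turned to -0.0064 with deposited values, with or without the block. The cause of these shifts was not tested. Cacna1a stayed above 0 and Cacna1f below 0 in all alternatives run. Cacna1f, below the median signal, was left out of the fit of bright genes.

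Signal over background limits Cacna1f, Stac3, Gem, Scn4a, Cacna2d4 and the control arrays of Cacng6. Among the named markers it limits Aif1, Cx3cr1, Csf1r, Pdgfra, Tnnt3, Pvalb, Col3a1, Cldn5, Flt1 and Crx. The number of arrays limits the precision.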

Other observations

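Several genes whose proteins tie calcium channels to vesicle release did not pass limma's test after normalization. The syntaxin gene Stx1a differed by 0.10 (95% interval -0.06 to 0.27), the calcium sensor gene Syt1 by -0.03 (-0.12 to 0.05) and the active zone scaffold gene Rims2 by -0.04 (-0.20 to 0.12). The scaffold gene Erc1 stood at -0.39 (adjusted p = 0.108, and 0.0306 with the experiment as a block). Calm2, the only measured one of the 3 listed calmodulin genes, stood at -0.23 (adjusted p = 0.112). These genes, like those of the next paragraph, were chosen after their values were seen.

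The exchanger gene Slc8a1 stood at -0.36 (limma's adjusted p = 0.169, and 0.0117 with the experiment as a block), in the direction of the pump gene Atp2b1, while Slc8a2 stood at 0.21 (0.0847, and 0.0334 with the block). The calcineurin genes Ppp3ca at -0.29 (0.0696) and Ppp3cb at -0.18 (0.0515, and 0.0257 with the block) had negative differences. Differences between these genes were not tested.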
